A study of Mus musculus with 6 samples.

Results

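The S100 calcium binding proteins were followed in bulk RNA-seq of mouse bone marrow sorted as regulatory T cells (Tregs). The 8 genes S100a1, S100a4, S100a6, S100a8, S100a9, S100a10, S100a11 and S100a13 were matched by symbol, and all 8 were present among the 15483 genes listed. The groups were 3 libraries from control mice and 3 libraries from mice 3 months after irradiation (IR), all of genotype WT. The sort gate took cells that were positive for CD3, CD4 and Foxp3 and negative for NK1.1. The age of the animals, the radiation dose and whether a library holds 1 mouse or a pool are not stated in the labels, so p-values measure the spread between libraries, which may be technical.

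S100 proteins are small proteins that carry a pair of calcium-binding EF hands, pair up as dimers, and change shape on binding calcium so that they can grip target proteins. S100A8 and S100A9 together form calprotectin, the main protein of the neutrophil cytosol, which is released in inflammation, withholds zinc and manganese from microbes and acts on receptors such as TLR4 and RAGE. Most of the other members act inside cells on annexins, the cytoskeleton and membranes, and S100A10 differs from the rest in that it has lost calcium binding. In marrow, S100a8 and S100a9 are textbook transcripts of the neutrophil lineage and not of Tregs.

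The labelled cell type was checked against marker genes. Foxp3, which defines Tregs, had a level of 22.6 ± 1.93 FPKM (SD, n = 3) in the controls and 12.6 ± 0.795 FPKM after irradiation. FPKM counts fragments relative to transcript length and library size, so levels of different genes can be set side by side. The 16 late neutrophil markers summed to between 22668 and 24218 FPKM in control libraries and between 30292 and 30695 FPKM in irradiated libraries. By comparison, 15 T cell core markers summed to between 570.5 and 590.1 FPKM in the controls and between 363 and 374 FPKM after irradiation. The libraries thus held neutrophil marker transcripts at far higher summed levels than those of T cells, and fewer cells of a type and less RNA per cell cannot be told apart in them.

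All 8 genes lie on mouse chromosome 3. S100a1, S100a13, S100a4, S100a6, S100a8 and S100a9 fall in 1 block of 184.7 kb (GENCODE M21 on GRCm38), in which S100a4 (90603771 to 90606045) and S100a6 (90612882 to 90624181) are 6.8 kb apart. S100a5, which averaged below 1 FPKM, lies between S100a4 and S100a6. S100a11 (93520488 to 93526287) and S100a10 (93555080 to 93564643) form a second pair, 2824.8 kb further on from S100a9. S100a1 (90511034 to 90514392) and S100a13 (90514435 to 90524581) are transcribed away from each other, and 43 bases separate their starts.

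The sequences around the annotated starts are shown because S100a6, S100a8 and S100a9 passed the test and the nearby S100a4 did not. Each run reads 5′ to 3′ on the gene's own strand, with 120 bases before the RefSeq start and 20 from it (GRCm38.p6), and capitals mark the letters TATAAA. The 4 runs come from chr3:90668951-90669090 (plus strand, S100a8), chr3:90695702-90695841 (minus strand, S100a9), chr3:90612774-90612913 (plus strand, S100a6) and chr3:90603650-90603789 (plus strand, S100a4).
S100a8: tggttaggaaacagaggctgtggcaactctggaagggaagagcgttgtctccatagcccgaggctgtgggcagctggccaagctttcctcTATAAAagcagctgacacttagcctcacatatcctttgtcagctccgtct
S100a9: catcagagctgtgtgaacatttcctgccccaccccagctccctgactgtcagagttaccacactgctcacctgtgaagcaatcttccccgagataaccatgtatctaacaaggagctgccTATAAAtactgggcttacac
S100a6: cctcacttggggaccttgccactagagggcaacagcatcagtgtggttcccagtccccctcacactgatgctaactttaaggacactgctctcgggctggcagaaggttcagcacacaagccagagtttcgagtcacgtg
S100a4: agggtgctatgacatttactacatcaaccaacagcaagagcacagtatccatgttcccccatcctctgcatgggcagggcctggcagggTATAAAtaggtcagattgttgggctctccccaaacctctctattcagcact

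Promoter windows of 300 bases (250 before the start and 50 from it) were found for 7 of the 8 genes, S100a10 being the one without an entry. The TATA box letters TATAAA began 30 bases before the start of S100a8 and 31 bases before that of S100a4, and at the first base of the annotated start in S100a9. On the gene strand, 1.99% of all 32851 windows held TATAAA starting 15 to 40 bases before the start, and on either strand 13.6% held it anywhere. Both shares were lower among the 11001 windows of tested genes, at 1.05% and 7.01%. The letters TTNNGNAA, the core of sites for C/EBP factors, were found once in the S100a8 window and 2 times in that of S100a9, against 40.7% of all windows, and 32.2% of those of tested genes, that held them on either strand. GAGGAA, as in sites of PU.1, occurred in the windows of S100a4, S100a8 and S100a11 (28.3% of all windows and 27.2% of those of tested genes). TGANTCA, the AP-1 site, occurred at 2 places in the S100a11 window (7.81% and 5.2%). CCAAT occurred in the S100a6 window (37.4% and 38.2%), and the interferon response element in none of the 7 (3.44% and 3.36%). S100a11 had 15 CpG in its window and S100a13 had 14, against 2 each in S100a4 and S100a9. These matches describe letters and are no measure of binding.

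The question was how levels of these genes differed 3 months after irradiation. S100a6, S100a8, S100a9 and S100a11 rose, S100a10 fell, and S100a1, S100a4 and S100a13 did not pass the test. The changes ran from 0.93 for S100a6 to -0.48 for S100a10 on the log2(FPKM + 1) scale. So 4 of the 8 genes rose and 1 fell, where 16.6% of all 10666 tested genes were called, 6.29% as risen and 10.3% as fallen (limma, Benjamini-Hochberg adjusted p under 0.05). In 5 of the 8 the groups did not overlap, which held for 33.6% of tested genes. The median log2 change was 0.21 over the 8 genes and -0.02 over all tested genes. The 8 genes were chosen with earlier results of these data known, so these shares and medians are description only.

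**Figure D1:**
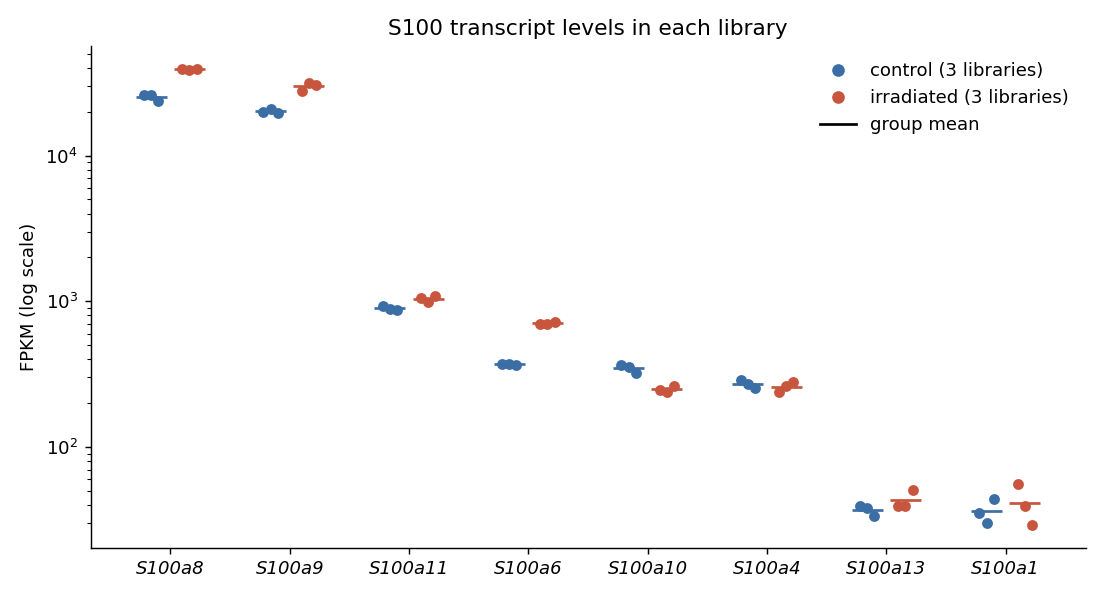
FPKM (log axis) of the 8 S100 genes in each of the 3 control and 3 irradiated libraries, as points with a line at the group mean. S100a8 and S100a9 lie at 19578 FPKM or above in every library, and the points of S100a1, S100a4 and S100a13 overlap between the groups.

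The calprotectin genes S100a8 and S100a9 came first and second among all listed genes in each of the 6 libraries. S100a8 stood at 26122, 25878 and 23847 FPKM in the control libraries and at 39035, 38595 and 39449 FPKM in the irradiated ones. Every irradiated library was above every control library, and the irradiated values lay closer together. The log2 change of S100a8 was 0.63 ± 0.05 (SE), with a limma adjusted p of 4.54e-06. S100a9 stood at 20059.6, 20800.3 and 19578 FPKM in control and at 27839, 31387 and 30443 FPKM in irradiated libraries. Its groups did not overlap either, and its spread was wider after irradiation, with an SD (n = 3) of 616 FPKM in the controls and 1838 FPKM after irradiation. The log2 change of S100a9 was 0.57 ± 0.05 (limma adjusted p = 2.18e-05).

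Both calls ended under quantile normalization, where both changes became 0, because these 2 genes hold the first and second rank in every library and that method gives equal ranks equal values. When the libraries were instead rescaled to their totals without the pair, S100a8 changed by 0.64 and S100a9 by 0.58, and in both cases the call was kept. All 8 genes took 10.2% ± 0.178 of all FPKM in the controls and 14.7% ± 0.316 after irradiation, nearly all of it from the calprotectin pair. Weighted by exonic length, and so nearer to a share of fragments, the pair made up 1.91% ± 0.0694 in control and 2.90% ± 0.0626 in irradiated libraries.

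The balance of the calprotectin subunits was compared as the ratio of S100a8 to S100a9 FPKM. It was 1.30, 1.24 and 1.22 in control and 1.40, 1.23 and 1.30 in irradiated libraries, and the groups overlapped. The log2 difference was 0.06, and an exact permutation test, two-sided, gave a p of 0.5 (adjusted p = 0.5 over 3 ratios), where 3 against 3 allows no p below 0.1. That difference was 0.0092 without irradiated replicate 1 and 0.10 without irradiated replicate 2.

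S100a6 encodes calcyclin, which binds annexins and the calcyclin binding protein, and it showed the largest change of the 8. It stood at 371, 370.4 and 366 FPKM in control and at 696, 703 and 719 FPKM in irradiated libraries. The values within each group lay close together, and the gap between the groups was far wider than either group's spread. The log2 change was 0.93 ± 0.04 (95% interval 0.85 to 1.02), with a limma adjusted p of 9.26e-08. By p-value S100a6 was number 10 of all tested genes, while 47 of the genes that rose had a larger change.

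S100a4, also called metastasin, binds non-muscle myosin and is made by many leukocytes and fibroblasts. It stood at 289, 269 and 256 FPKM in control and at 238, 260.5 and 281 FPKM in irradiated libraries. The groups overlapped over most of their range. The log2 difference was -0.06 ± 0.07 (95% interval -0.21 to 0.08, limma adjusted p = 0.59), and without irradiated replicate 1 it was 0.00026. The gene model Gm42674, also on chromosome 3 and not analysed here, matches the S100a4 transcript without a mismatch over 302 bases. The nearby genes S100a6 and S100a4 were set against each other after their values were seen. Their ratio was 1.28, 1.38 and 1.43 in control and 2.92, 2.70 and 2.56 in irradiated libraries, with no overlap. The log2 difference of that ratio was 0.998, and the exact permutation p (two-sided) was 0.1, the smallest possible (adjusted p = 0.15 over 3 ratios).

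**Figure D2:**
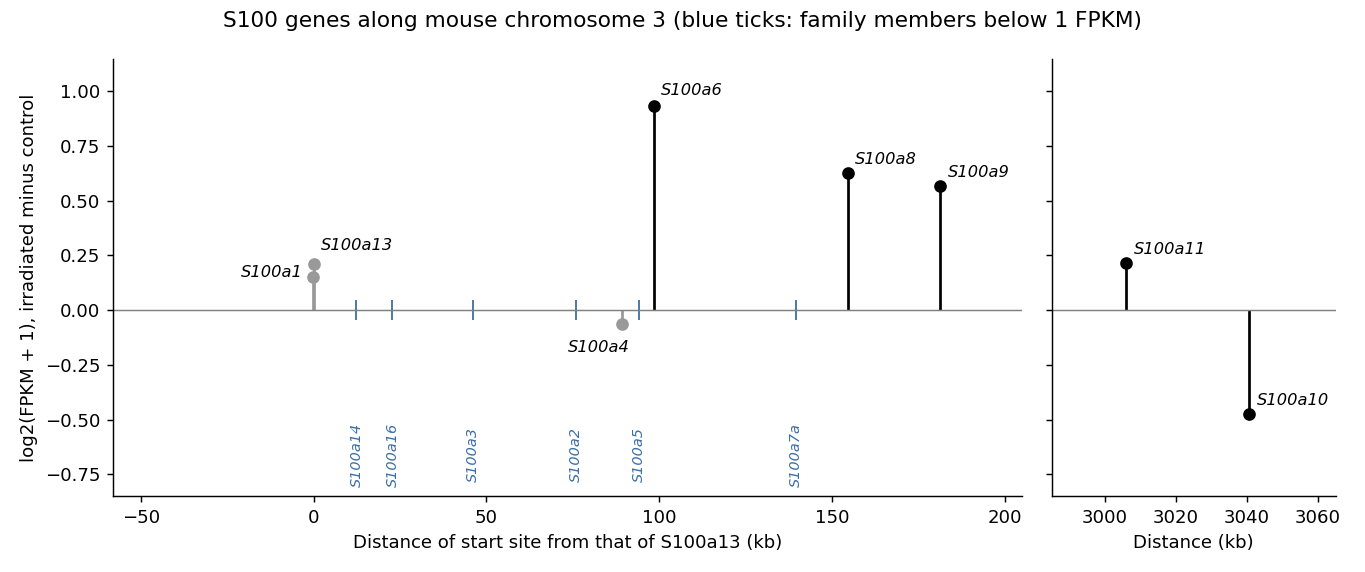
Log2 change of each S100 gene (vertical axis, irradiated minus control) against the distance of its start from that of S100a13 in kb, with the far pair S100a11 and S100a10 in a panel of its own. Black stems passed the test and grey ones did not, and blue ticks are S100 genes below 1 FPKM that were not tested. S100a6 (0.93) stands near S100a4, which did not pass, and S100a11 (0.22) beside S100a10 (-0.48).

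S100a11 and S100a10 are neighbours, and both bind annexins. S100a11, a partner of annexin A1, stood at 925, 885 and 873 FPKM in control and at 1045, 994 and 1079.9 FPKM in irradiated libraries. The groups did not overlap, and the log2 change was 0.22 ± 0.04 (limma adjusted p = 0.00691). That call was lost without the trend in the variance model (adjusted p = 0.104). Annotated transcripts of 5 processed pseudogenes matched S100a11 at 90% identity or more over at least 100 bases. The closest, Gm12854 on chromosome 4, matched at 99.0% over 297 bases. Gm12854 was listed at 10.4 ± 0.764 FPKM in the controls and 11.8 ± 0.616 FPKM after irradiation. Reads of S100a11 can be shared with such copies, and how many are shared was not tested.

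S100a10 encodes p11, which joins annexin A2 in a complex at the plasma membrane. It stood at 364, 355 and 321 FPKM in control and at 246, 238 and 263 FPKM in irradiated libraries. All irradiated values lay below all control values. The log2 change was -0.48 ± 0.06 (95% interval -0.60 to -0.35, limma adjusted p = 0.000195). Its partner Anxa2 stood at 306 ± 12.3 FPKM in the controls and 338 ± 7.52 FPKM after irradiation, a difference that missed the threshold (log2 change 0.14 ± 0.05, limma adjusted p = 0.0554). The ratio of S100a10 to Anxa2, examined after these values were seen, was 1.17, 1.13 and 1.10 in control and 0.721, 0.722 and 0.765 in irradiated libraries. Those groups did not overlap, with a log2 difference of -0.62 and an exact permutation p (two-sided) of 0.1, the smallest possible (adjusted p = 0.15 over 3 ratios).

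**Figure D3:**
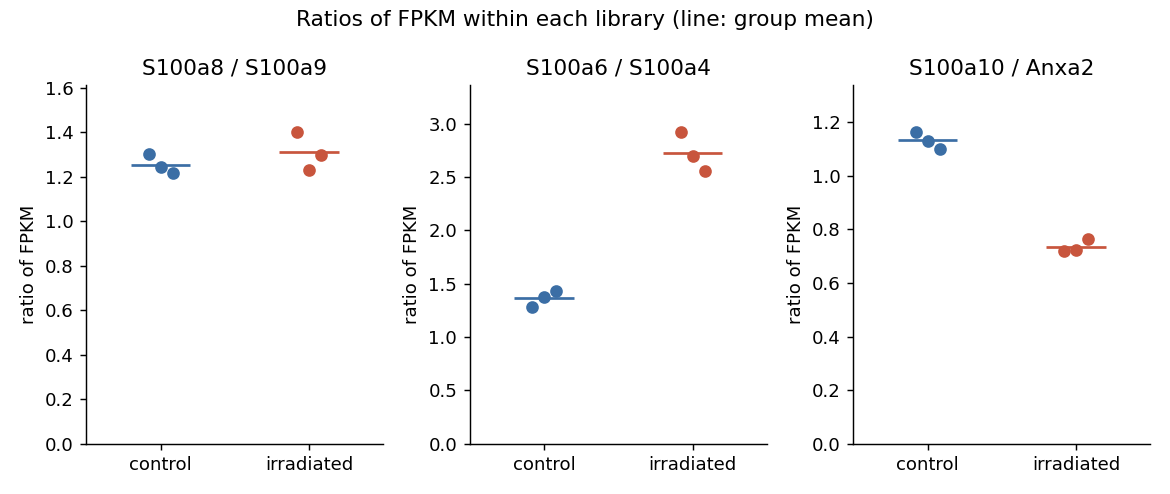
Ratio of FPKM within each library for S100a8 to S100a9, S100a6 to S100a4 and S100a10 to Anxa2, with 3 control and 3 irradiated points each and a line at the mean. The first ratio overlaps between groups, the second lies higher and the third lower in all 3 irradiated libraries.

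S100a13, which helps to release fibroblast growth factor 1, and S100a1, best known from heart muscle, were the lowest of the 8. S100a13 stood at 39.4, 38.1 and 33.7 FPKM in control and at 39.4, 39.6 and 50.7 FPKM in irradiated libraries. Irradiated replicate 3 was high and the other irradiated values lay near the control values. Its log2 difference was 0.21 ± 0.10 (95% interval -0.01 to 0.43, limma adjusted p = 0.196). It was 0.091 without irradiated replicate 3 and 0.14 without control replicate 3. S100a1 stood at 35.2, 29.9 and 44.1 FPKM in control and at 55.5, 39.6 and 29.2 FPKM in irradiated libraries. Both the highest and the lowest value were from irradiated libraries, and the log2 difference was 0.15 ± 0.19 (95% interval -0.28 to 0.58, limma adjusted p = 0.655). Without irradiated replicate 1 it was -0.078. These divergent neighbours had like levels in control libraries, at 37.1 ± 3.02 FPKM for S100a13 and 36.4 ± 7.19 FPKM for S100a1.

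**Figure D4:**
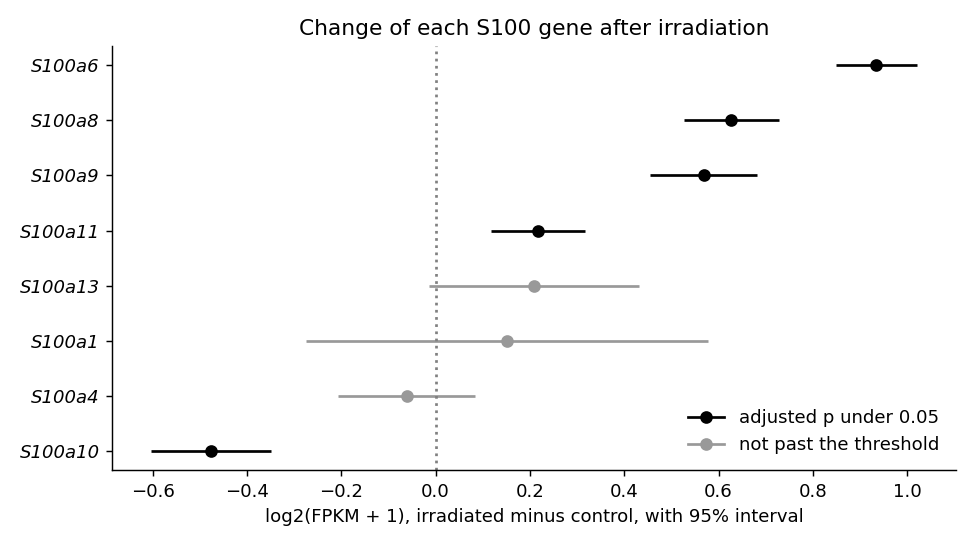
Log2 change of each S100 gene, irradiated minus control, with its 95% interval from limma. The intervals of S100a6, S100a8, S100a9 and S100a11 lie above 0, that of S100a10 lies below 0, and those of S100a13, S100a1 and S100a4 include 0.

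In control libraries the order of level was S100a8, S100a9, S100a11, S100a6, S100a10, S100a4, S100a13 and S100a1, and only the last pair had overlapping ranges. In irradiated libraries S100a4 and S100a10 changed places, at 260.0 ± 21.6 and 249 ± 12.7 FPKM with overlapping ranges, and the ranges of S100a13 and S100a1 overlapped again. The rest of the family was close to the floor. S100a2, S100a3, S100a5, S100a7a, S100a14, S100a16 and S100b were below 1 FPKM on average and were not tested, and together they summed to at most 1.10 FPKM in any library. S100a7a was listed at 0 in all 3 control libraries and at 0.206, 0.029 and 0.466 FPKM in the irradiated ones. S100g and S100z were not analysed here. Among genes that are not of the family, the nearest listed neighbour of the block on the side of S100a1 was Chtop, 1.5 kb away, which encodes a chromatin and mRNA export factor. Chtop stood at 43.5 ± 1.78 and 40.9 ± 1.95 FPKM and did not pass (limma adjusted p = 0.423). Pglyrp4 on the side of S100a9, and Tchh and Them4 around the S100a11 pair, averaged below 1 FPKM and were not tested.

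Receptors and adaptors that extracellular S100 proteins act through moved in both directions. Of 11 tested, 3 rose and 4 fell, with a median log2 change of -0.18. Mcam, an adhesion molecule that binds S100A8/A9, rose from 1.57 ± 0.210 to 5.25 ± 0.870 FPKM (log2 change 1.28 ± 0.15). The myeloid receptor gene Cd33 rose by 0.59 ± 0.08 and Myd88, the adaptor of Toll-like receptors, by 0.29 ± 0.06. The scavenger receptor gene Cd36 changed by -0.85 ± 0.15, Alcam by -0.41 ± 0.11, Nptn by -0.21 ± 0.06 and Bsg by -0.20 ± 0.06. The classical receptors were named after their values were seen. Tlr4 stood at 6.06 ± 0.421 and 5.56 ± 0.637 FPKM, and Ager, which encodes RAGE, at 5.67 ± 1.99 and 9.31 ± 3.10 FPKM. Neither passed, with limma adjusted p of 0.605 for Tlr4 and 0.0863 for Ager. Ly96 (-0.70 ± 0.23) and Cd14 (-0.18 ± 0.14) did not pass either, with limma adjusted p of 0.0615 and 0.449.

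Among 12 tested genes of intracellular partners, 4 rose and 2 fell, with a median of 0.11. Anxa1, the partner of S100A11, rose from 888 ± 8.26 to 1664 ± 13.5 FPKM (log2 change 0.91 ± 0.04, limma adjusted p = 7.36e-08). Anxa11, a partner of S100A6, rose by 0.44 ± 0.06 and Anxa6, another S100-binding annexin, changed by -0.49 ± 0.06. Cybb, the core of the NADPH oxidase that calprotectin helps to activate, rose by 0.22 ± 0.04, a call that was lost without the trend in the variance model (limma adjusted p = 0.0801). Of 8 transcription factors known to act on the calprotectin genes or on neutrophil maturation, 4 rose and 0 fell, with a median of 0.18. Gfi1 rose by 0.45 ± 0.07, Klf5 by 0.46 ± 0.10, Cebpe by 0.27 ± 0.05 and Spi1, which encodes PU.1, by 0.26 ± 0.04. Cebpa (0.098), Stat3 (0.078), Cebpd (-0.025) and Cebpb (-0.066) did not pass, with limma adjusted p between 0.248 and 0.864. Of all tested genes 6.29% rose and 10.3% fell.

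Marker genes of other marrow cells moved in the same libraries. Of 16 late neutrophil markers 14 rose and 0 fell, with a median of 0.41 and a range of 0.16 to 0.81, and Mmp9, a granule protease, rose by 0.66 ± 0.04. S100a8, S100a9, S100a11 and S100a13 changed by amounts inside that range, though S100a13 did not pass. S100a6 lay above the highest of these markers, Fpr2, a receptor for formyl peptides (0.81 ± 0.05). Of 6 early granule markers 3 rose and 0 fell, with a median of 0.26, and they summed to between 4838 and 5442 FPKM in the controls and between 6107 and 6186 FPKM after irradiation. Of 16 monocyte and macrophage markers 0 rose and 15 fell, with a median of -1.11 and a range of -2.19 to -0.03. The complement gene C1qc changed by -1.91 ± 0.07. The monocyte genes Ly6c2 and Ccr2, named after their values were seen, lay far above that median. Ly6c2 changed by -0.31 ± 0.05, and Ccr2 did not pass (-0.03 ± 0.06, limma adjusted p = 0.778). The 16 markers summed to between 7943 and 8569 FPKM in the controls and between 6427 and 6497 FPKM after irradiation. Most of that sum was Lyz2, at 5967 FPKM in the controls and 4968 FPKM after irradiation (log2 change -0.26 ± 0.04).

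Most markers of lymphocytes, eosinophils and red cells fell, as S100a10 did. Of 15 T cell core markers 0 rose and 13 fell (median -0.63), and of 8 Treg markers 0 rose and 7 fell (median -0.65), with sums of 198 to 206 FPKM in control and 115 to 129 FPKM in irradiated libraries. Of 9 eosinophil markers 0 rose and 7 fell (median -0.81), with sums of 5435 to 6008 and 3541 to 3599 FPKM. Of 10 tested B cell markers 0 rose and 10 fell (median -1.22), and all 11 listed ones had sums of 113 to 121 and 40.1 to 48.5 FPKM. Of 8 erythroid markers 0 rose and 6 fell (median -0.60), with sums of 1077 to 1322 and 726 to 755 FPKM. No marker was at 0 in all 6 libraries. The part of these cell types in the S100 changes was not tested.

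**Figure D5:**
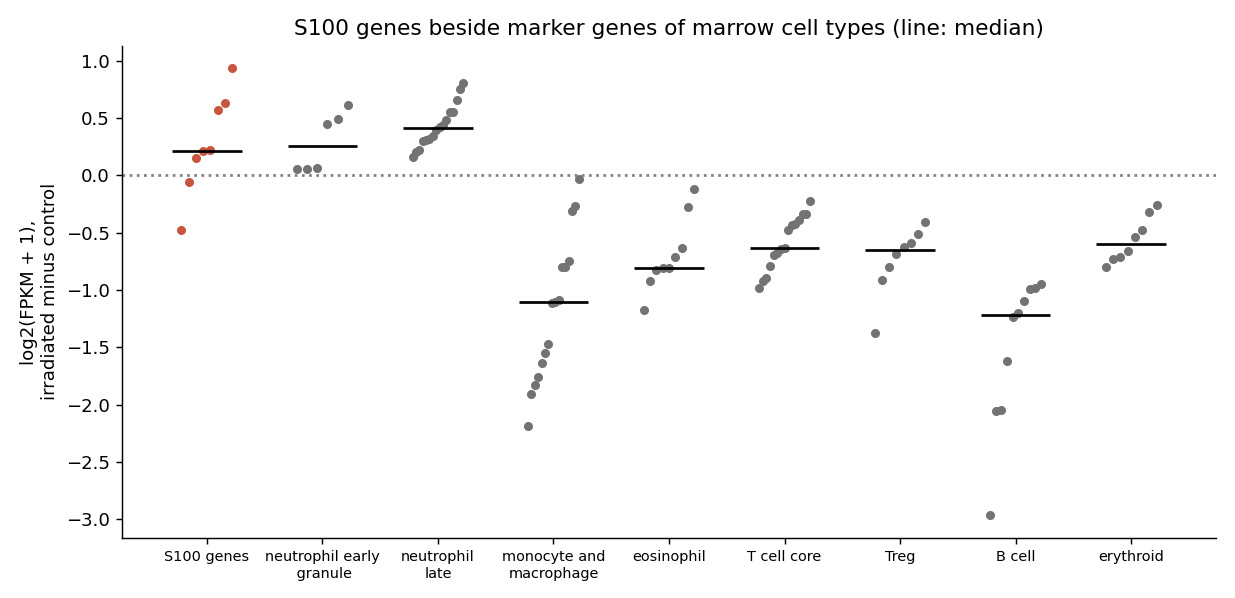
Log2 change, irradiated minus control, of the 8 S100 genes (red) beside the tested marker genes of 8 cell classes (grey), with a line at each median. Both neutrophil classes have medians above 0, the other classes have medians below 0, and the S100 genes span from -0.48 to 0.93.

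Genes whose profile over the 6 libraries was most like that of an S100 gene were found by the root mean square difference of centred log2 values, among genes averaging at least 5 FPKM. For genes that rose or fell this likeness is mostly the group difference itself. The profile nearest to S100a6 was that of Anxa1, at a difference of 0.021, followed by Qsox1 and Cmah. Nearest to S100a8 were G6pdx (0.025), the first enzyme of the pentose phosphate pathway, Ctsg (0.032), a neutrophil granule protease, and Prss34 (0.036), a protease of basophils and mast cells. S100a9 was nearest to Vcan (0.035), Serpinb1a (0.042), an inhibitor of neutrophil proteases, and Septin5 (0.050). S100a10 was nearest to Irf4 (0.028), a transcription factor of lymphocytes, Anxa6 (0.031) and Slc9a9 (0.037). For Irf4 the call (-0.43 ± 0.12, limma adjusted p = 0.0300) was lost when either of control replicates 1 and 2 or irradiated replicates 1 and 2 was left out (limma adjusted p between 0.0623 and 0.112). It was also lost without a filter, under quantile normalization and with the replicate block, at limma adjusted p of 0.0586, 0.0533 and 0.0584. S100a11 was nearest to Washc2, Atrn and Hmgn2, S100a4 to Ptpa, Ogdh and Slc25a25, and S100a13 to Ankrd49, Dhps and Get4.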

How the data were processed

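The tools named in the submitters' processing notes are fastp, HISAT2 and StringTie, with the builds GRCm38 and mm10 (versions, settings and annotation: not given in the sources). A stranded mRNA kit was used, per the labels' protocols. What the authors deposited is a single value for each gene in each library, read as FPKM from the values, since the headers name only gene and sample. Genes averaging at least 1 FPKM (10666) were tested on log2(FPKM + 1), which understates the change of low genes, with limma 3.58.1 (trend, two-sided, Benjamini-Hochberg, threshold 0.05) in R 4.3.3. The absolute depth is unknown. Low values gave depths of 98.5% and 103% for the other controls and of 81.6% to 92.7% for the irradiated libraries, relative to control replicate 1.

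Ratios were compared by two-sided exact permutation. The limma fit was tested on simulated data of this comparison (10666 genes, 200 changed, 5 draws). It recovered 44.2% of log2 changes of 0.5 and 87.4% of log2 changes of 1, and 3.64% of its calls were false. The simulation changed 200 genes, whereas 1771 were called in the real data. Coordinates are from GENCODE M21, promoters from RefSeq GRCm38.p6, copies from blastn 2.17.0. Members and lists were chosen with earlier results of these data known. Named genes were the members, up to 4 genes per related list and 3 per marker list with the lowest p, the 3 nearest profiles of each member (those of S100a1 are not reported here) and its nearest neighbours. Same-numbered libraries did not deviate together (r -0.042 to 0.011), so numbers served as names.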

Additional observations from a re-analysis of the deposited data

How the results depend on the processing

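The fit was repeated without a filter, with a filter at 5 FPKM, with a pseudocount of 0.1, with 3 other scalings, without the variance trend, with a replicate block, and with each library left out. S100a6 and S100a10 kept direction and call in every one of them, at log2 changes of 0.92 to 0.97 and -0.53 to -0.44. Under quantile normalization 2 S100 genes were higher in place of 4, with S100a8 and S100a9 at 0 by the construction of that method, and in all other alternatives their calls held. Without the trend S100a11 (0.217) lost its call at an adjusted p of 0.104, and the cause was not tested. Leaving out 1 library moved S100a1 between -0.078 and 0.37 and S100a4 between -0.12 and 0.00026, neither of which passed in any fit. The S100a8 to S100a9 ratio moved between 0.0092 and 0.10 on the log2 scale. The counts over all genes, 671 higher and 1100 lower, ran from 414 to 684 and from 722 to 978 without 1 library, lowest without control replicate 2, while 4 S100 genes stayed higher and 1 lower. The replicate block gave 558 and 948 genes and changed no call of an S100 gene, with adjusted p of 1.2e-05 for S100a6 and 0.0232 for S100a11. Among named genes that are no members, Irf4 lost its call in 3 of these alternatives and without each of 4 libraries, Cybb and Hmgn2 lost theirs without the trend (adjusted p of 0.0801 and 0.0501), and Washc2 gained one under median-of-ratios scaling (0.042). In pairs by number the 3 ratios had log2 differences of 0.06, 0.998 and -0.62. The exact sign-flip p was 0.5, 0.25 and 0.25, and 3 pairs allow no p below 0.25. The share of S100a8 and S100a9 was 9.80% and 14.3% of summed FPKM and 1.91% and 2.90% weighted by exonic length, as both transcripts are short. No S100 gene of the 8 is near the floor, so unknown depth limits mainly the rest of the family.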
